A study of Homo sapiens with 32 samples.

Results

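In LNCaP cells, 22 of the 57773 genes of the deposited table were at or near 0 counts until an activating construct aimed at androgen response elements was switched on. They were chosen by their counts in the 8 libraries of the activating line: 3 or fewer in each of the 4 vehicle libraries and 15 or more in each of the 4 tamoxifen libraries. Among the 50100 genes at 3 or fewer counts in all 4 vehicle libraries, 26 (0.0519%) also reached 15 in all 4 tamoxifen libraries. GSTM3, KRT5, KRT6A and NAV2-AS1 were left out by name, which gave the 22 genes. No gene met the same limits in the parental, neutral or repressive line. The mirrored limits, 15 or more under vehicle and 3 or fewer under tamoxifen, were met by 9 genes in the activating line, with the same names left out, and by 1 in the repressive line, DLX1. PLEKHG3 and RP11-74C13.4, put forward as markers of this group, were not among the 22. PLEKHG3 had 3, 2, 5 and 2 counts under vehicle and 215, 255, 231 and 296 under tamoxifen. RP11-74C13.4 had 5, 2, 6 and 1 under vehicle and 346, 362, 336 and 411 under tamoxifen. Both climbed far above the tamoxifen limit but exceeded 3 counts in some vehicle library.

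LNCaP is an androgen-dependent prostate cancer cell line derived from a lymph node metastasis. The cells were used as the parental line or carried a modifier of ARE-containing chromatin (MACC), in which a DNA-binding domain for the androgen response element (ARE) is joined to the ERT2 hormone-binding domain. The neutral MACC has only a 3X FLAG tag, the repressive MACC a KRAB domain and the activating MACC a VP64 domain. All constructs were delivered by lentivirus under a PGK promoter and selected with blasticidin, and every line was given tamoxifen at 2.5 µM or vehicle (EtOH) for 48 h, with 4 libraries in each of the 8 groups and 32 in all. The parental cells shared the medium and treatments but carried no construct.

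An ARE is a palindrome of paired half-sites that is bound by a protein dimer. ERT2 keeps a fused protein out of the nucleus until tamoxifen binds it. VP64, made of repeats of a viral activation domain, recruits the transcription machinery to sites where the fusion binds, whereas KRAB recruits repressive chromatin factors to them.

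Totals of estimated counts assigned to genes were low, between 454996 and 1164823 per library. Thus 15 counts in a library is a small number of reads, and an absence is a limit and not a zero. Rows of the luminal prostate markers were uneven in activating vehicle: KRT8 had 533 to 1167 counts, HOXB13 33 to 57, KLK3 19 to 31, KRT18 13 to 29 and TMPRSS2 3 to 7. The library kit keeps the strand of the RNA, but the strand setting used in counting is not given in the sources used here. Of the 1662 other annotated genes at 15 or more counts in every activating tamoxifen library, 1463 (88%) had an exon overlapping an exon on the opposite strand, against 23% of all 55538 annotated genes of the table and 7 of the 21 annotated members (33.3%). Most of those 1662 rows thus lay opposite an exon of another gene. If counting used the opposite strand, a row would hold RNA read from the other strand at its position and its name would not be that of the gene transcribed. The share of a row's counts that came from the opposite strand was not tested, so each gene name below stands for a row of the table and its counts, and a gene cannot be told apart from RNA of the opposite strand at the same place.

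**Figure D1:**
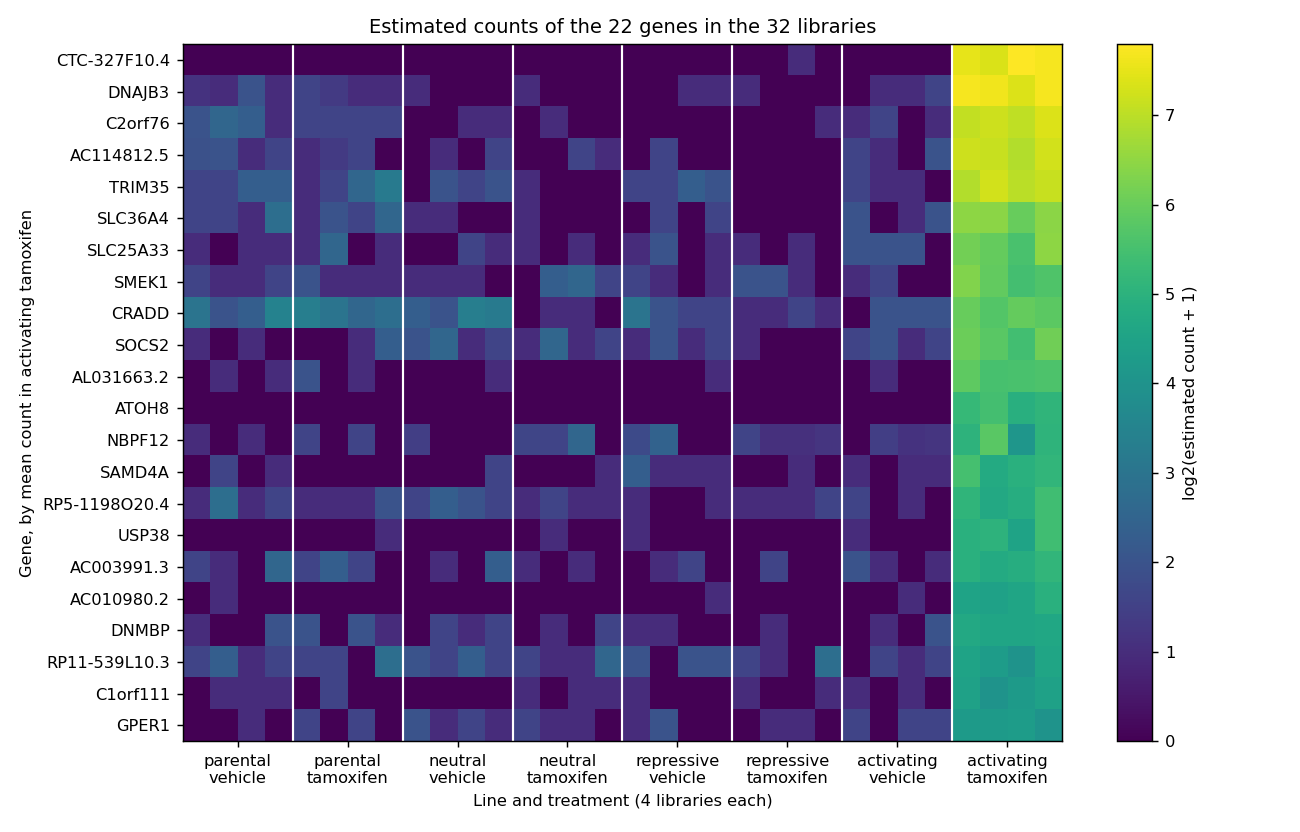
Estimated counts of the 22 genes (rows, ordered by mean count in activating tamoxifen) in the 32 libraries (columns, 4 per line and treatment), shown as log2(estimated count + 1). In activating tamoxifen the values run from 15 to 221 counts, and no value in the 24 libraries of the other lines is above 10.

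Sequence near the starts was examined first, because the construct carries a DNA-binding domain for the ARE. The element searched was AGAACA, any 3 bases, TGTTCT, which reads the same on both strands. The study used a published motif definition of the ARE and not this fixed string. It was not found within 10 kb of the annotated start of any of the 21 annotated genes on GRCh37. Of all 55538 annotated genes of the table, 187 had the string (0.337%), as did 7 of the 1662 other genes at 15 or more counts (0.421%). At shares this low, finding none among 21 genes was likely for any genes and says little about these. With 1 mismatch allowed in the 12 fixed letters, 1 of the 21 (4.76%) had a match, against 6.56% of the 1662 genes and 8.95% of all. That match was upstream of RP5-1198O20.4, a long non-coding RNA, at position -6576 from its start, at chr1:44489503-44489517. It is shown on the plus strand with 15 bases on each side and the element in capitals.
RP5-1198O20.4 upstream: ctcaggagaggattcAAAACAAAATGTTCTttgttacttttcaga

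RefSeq promoters (GRCh38.p14, 250 bases before to 50 after a start) were found for 14 of the 22 genes. None held the element with up to 1 mismatch, against 0.165% of all 35116 promoters, a share at which none among 14 genes was likely for any genes. A half-site alone, AGAACA or TGTTCT on either strand, occurred in a promoter of 2 of the 14 genes (14.3%), against 4790 of 27305 genes (17.5%). Those promoters, one of several starts in each case, are given with the half-site in capitals, followed by the promoter of ATOH8, the gene at 0 counts in every library outside activating tamoxifen, which held no half-site. Each is printed on the strand of its gene.
DNMBP promoter, chr10:99913987-99914286, minus strand: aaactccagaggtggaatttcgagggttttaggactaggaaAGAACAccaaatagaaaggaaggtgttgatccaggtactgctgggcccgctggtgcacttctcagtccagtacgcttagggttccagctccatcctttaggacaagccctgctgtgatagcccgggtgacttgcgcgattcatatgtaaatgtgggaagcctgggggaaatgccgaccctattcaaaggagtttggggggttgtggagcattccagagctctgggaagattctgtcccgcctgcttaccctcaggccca
SLC36A4 promoter, chr11:93197377-93197676, minus strand: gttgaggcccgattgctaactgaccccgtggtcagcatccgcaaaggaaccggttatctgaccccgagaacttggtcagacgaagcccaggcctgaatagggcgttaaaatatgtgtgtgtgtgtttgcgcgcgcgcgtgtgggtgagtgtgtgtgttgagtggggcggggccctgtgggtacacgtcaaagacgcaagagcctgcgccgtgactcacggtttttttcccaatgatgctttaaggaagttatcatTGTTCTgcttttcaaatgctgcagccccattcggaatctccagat
ATOH8 promoter, chr2:85753741-85754040, plus strand: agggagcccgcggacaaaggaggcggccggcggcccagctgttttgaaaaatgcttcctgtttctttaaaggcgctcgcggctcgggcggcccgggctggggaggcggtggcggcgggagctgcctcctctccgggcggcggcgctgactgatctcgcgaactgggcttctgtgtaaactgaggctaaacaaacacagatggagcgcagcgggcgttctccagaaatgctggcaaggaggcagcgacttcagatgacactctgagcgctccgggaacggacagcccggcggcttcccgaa
A match here is a run of letters and not a bound site, and elements farther from a start than these windows were not searched. If a row held RNA of the opposite strand, the start searched would not be the start of that RNA.

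Of the 21 annotated genes, 14 were protein coding (66.7%), 4 were long non-coding RNAs and 3 were pseudogenes. Among the 1662 other genes the shares were 62.9%, 32.1% and 4.27%. Values in the activating line are given below for each group of genes by role. Since these libraries chose the genes, the values are a description and no test of them is given. Ratios of tamoxifen to vehicle pool the 4 libraries of each group, scaled by library size and composition. Their 95% intervals are exact and cover counting error only.

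Among the signalling proteins, SOCS2, a feedback inhibitor of cytokine and growth hormone signalling, had 2, 3, 1 and 2 counts under vehicle and 65, 55, 42 and 68 under tamoxifen. The pooled ratio was 39.9 (19.9 to 93.5). CRADD, a death-domain adaptor that joins caspase-2 to its activating complex, had 0, 3, 3 and 3 counts under vehicle and 62, 51, 61 and 56 under tamoxifen, a ratio of 35.4 (18.3 to 78.5). These genes are neighbours on the plus strand of chromosome 12, SOCS2 at chr12:93963590-93977263 and CRADD at chr12:94071151-94288616, 93.9 kb apart. An annotated antisense gene, SOCS2-AS1, shares 277 exonic bases with SOCS2 and had 0 to 2 counts with vehicle and 0 to 4 with tamoxifen. UBE2N, on the other strand upstream of SOCS2, had 4 to 10 counts with vehicle and 3 to 6 with tamoxifen, so the low-to-high step was not shared by that neighbour.

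GPER1, a membrane receptor for estrogen, lay at the edge of the limits with 2, 0, 2 and 2 counts under vehicle and 18, 18, 19 and 15 under tamoxifen. Its ratio of 16.2 (7.07 to 45.6) was the smallest of the 22. DNMBP, an exchange factor for the GTPase CDC42, had 0, 1, 0 and 3 against 25, 23, 23 and 24 counts, the narrowest spread of counts among the protein-coding members. It shares 789 exonic bases with DNMBP-AS1, which had 4 to 8 counts with vehicle and 5 to 8 with tamoxifen.

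Both members of the ubiquitin system were clear of the limits. TRIM35, a RING-type ubiquitin ligase, had 2, 1, 1 and 0 counts under vehicle and 117, 153, 125 and 140 under tamoxifen, a ratio of 185.5 (72.0 to 683). USP38, a deubiquitinating enzyme, had 1, 0, 0 and 0 against 30, 32, 22 and 41 counts, and its interval, 30.6 to 6900 around a ratio of 173, was wide because 1 vehicle count stood below it. No exon on the opposite strand overlaps either gene. PTK2B begins 210 bases from TRIM35 on the other strand and stayed at 1 to 3 counts under both treatments.

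Regulators of transcription, RNA and phosphatase activity formed the next group. ATOH8, a basic helix-loop-helix transcription factor, had 36, 43, 29 and 33 counts under tamoxifen and 0 in each of the other 28 libraries. Its tamoxifen level was at least 65.2-fold higher than vehicle, taking 3 counts over the 4 vehicle libraries as the floor. ATOH8 (chr2:85978467-86018506, plus strand) overlaps no gene of the opposite strand, and its nearest such gene, RNU1-38P, is 23007 bases away.

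SMEK1, now named PPP4R3A, is a regulatory subunit of protein phosphatase 4. It had 1, 2, 0 and 0 counts under vehicle and 79, 60, 43 and 49 under tamoxifen, a ratio of 107 (36.1 to 522). SAMD4A, an RNA-binding repressor of translation, had 1, 0, 1 and 1 against 44, 26, 30 and 34 counts, a ratio of 61.9 (20.7 to 304). In both genes replicate 1 was the highest tamoxifen library.

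The transporters SLC25A33 and SLC36A4 rose from vehicle counts at the limit. SLC25A33, which carries pyrimidine nucleotides into mitochondria, had 3, 3, 3 and 0 counts under vehicle and 69, 61, 46 and 88 under tamoxifen, a ratio of 40.7 (21.1 to 89.9). SLC36A4, an amino acid transporter, had 3, 0, 1 and 3 against 88, 86, 62 and 85 counts, a ratio of 63.6 (30.5 to 159). Replicate 3 was the lowest tamoxifen library for both.

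C2orf76, a protein-coding gene of little-known function, reached 133, 145, 130 and 167 counts under tamoxifen from 1, 2, 0 and 1, a ratio of 199 (77.4 to 734). It lies at chr2:120059801-120124410 on the minus strand, and DBI starts 90 bases away on the plus strand. DBI, which encodes an acyl-CoA-binding protein, had 2 to 4 counts with vehicle and 9 to 18 with tamoxifen, without overlap. STEAP3-AS1, on the same strand as C2orf76, went the other way, from 58 to 131 counts down to 14 to 23. C1orf111, now named SPATA46 for its association with spermatogenesis, had 1, 0, 1 and 0 against 21, 15, 18 and 21 counts. NBPF12, of the neuroblastoma breakpoint family, had 0, 1.7, 1.2 and 1.3 against 32, 55, 16 and 32.6 counts. Its near-identical paralogs share reads, so its non-whole counts are uncertain, and its tamoxifen libraries had the widest spread of the 22 genes (coefficient of variation 44.6% of the mean normalised count).

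Pseudogenes and non-coding rows included the highest counts. DNAJB3, annotated as a processed pseudogene of the HSP40 chaperone family, had 0, 1, 1 and 2 counts under vehicle and 204.5, 198.1, 165.2 and 203.8 under tamoxifen, a ratio of 268 (104 to 985). AC114812.5, also annotated as a processed pseudogene, had 2, 1, 0 and 3 against 146.5, 138.9, 117.8 and 151.2 counts, a ratio of 128 (58.5 to 350). Both are on the minus strand of chromosome 2, 10.3 kb apart, at chr2:234651396-234652661 and chr2:234662951-234663991. They lie opposite the UGT1A genes, which encode glucuronidating enzymes of steroid and drug metabolism and share their last exons. AC114812.5 overlaps 656 bases of UGT1A6 exons, whereas DNAJB3 overlaps only introns. The table has 9 UGT1A rows, with 4 counts in all over the 32 libraries and never more than 1 in a library. Counts at this locus were thus assigned to the minus-strand rows and hardly at all to the rows of the enzyme genes, and RNA of either strand cannot be told apart here.

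**Figure D2:**
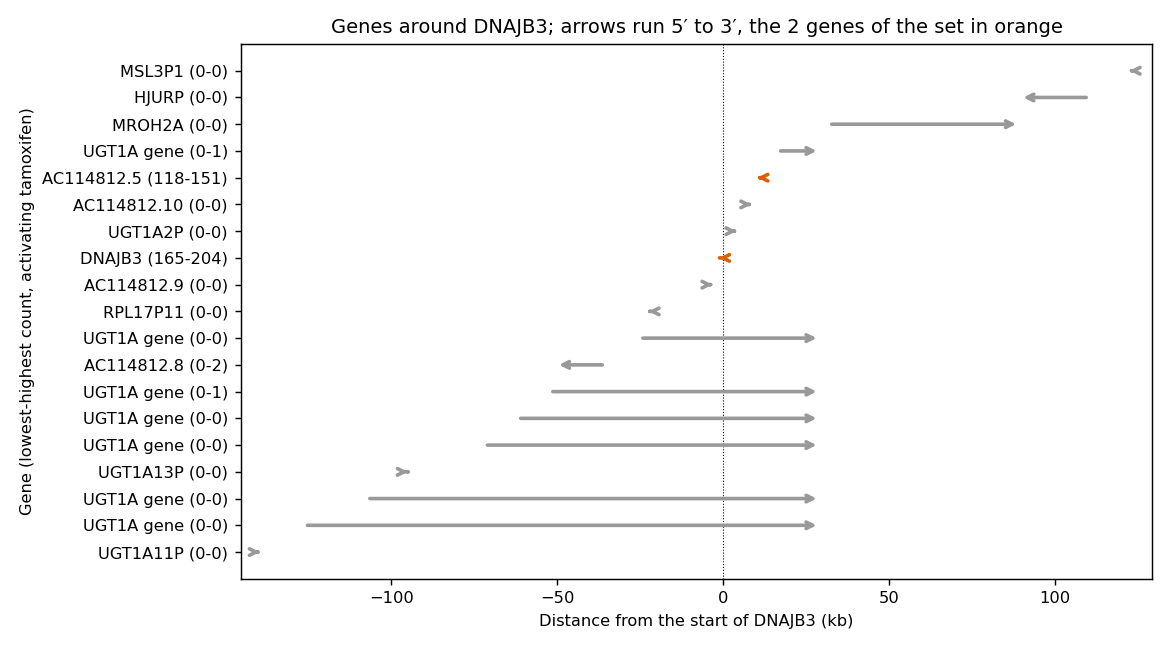
Genes around DNAJB3 by distance from its start in kb, with arrows from the 5′ to the 3′ end and, in brackets, the lowest and highest estimated count over the 4 activating tamoxifen libraries (whole numbers). DNAJB3 and AC114812.5 (orange) hold 117.8 to 204.5 counts, and the other genes shown hold at most 2.

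CTC-327F10.4, a long non-coding RNA at chr5:147266675-147267267, had 182, 164, 221 and 205 counts under tamoxifen and 0 in all 4 vehicle libraries, at least 357-fold higher. It lies within C5orf46 on the opposite strand, without exon overlap. C5orf46 itself had 0 counts under vehicle and 3, 12, 12 and 4 under tamoxifen, so it also moved from 0 in these libraries. AC003991.3 had 3, 1, 0 and 1 against 30, 26, 28 and 34 counts, a ratio of 32.7 (13.6 to 103). It overlaps 782 exonic bases of STEAP4, a metalloreductase gene on the androgen response list used here, and STEAP4 had 0 to 1 counts with vehicle and 0 with tamoxifen.

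The other non-coding rows were lower. RP5-1198O20.4, whose upstream element is printed above, had 2, 0, 1 and 0 counts against 33, 25, 28 and 41. It shares 1386 exonic bases with KRT8P47 on the opposite strand, which had 0 counts in each library of the activating line. AC010980.2, named CT75 in RefSeq, had 0, 0, 1 and 0 against 22, 21, 23 and 30. Of its 1142 exonic bases, 1096 lie opposite exons of a gene on the other strand that has no row of its own. RP11-539L10.3, named LINC02482 in RefSeq, had 0, 2, 1 and 2 against 22, 19, 15 and 23. AC093323.3, which shares 282 exonic bases with RP11-539L10.3 on the other strand, had 20 to 34 counts with vehicle and 14 to 28 with tamoxifen, so both were counted in the same libraries. AL031663.2, a row not found in the annotation used here, had 0, 1, 0 and 0 against 57.3, 45.5, 45.6 and 48 counts, a ratio of 272 with an interval from 48.2 to 10790.

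**Figure D3:**
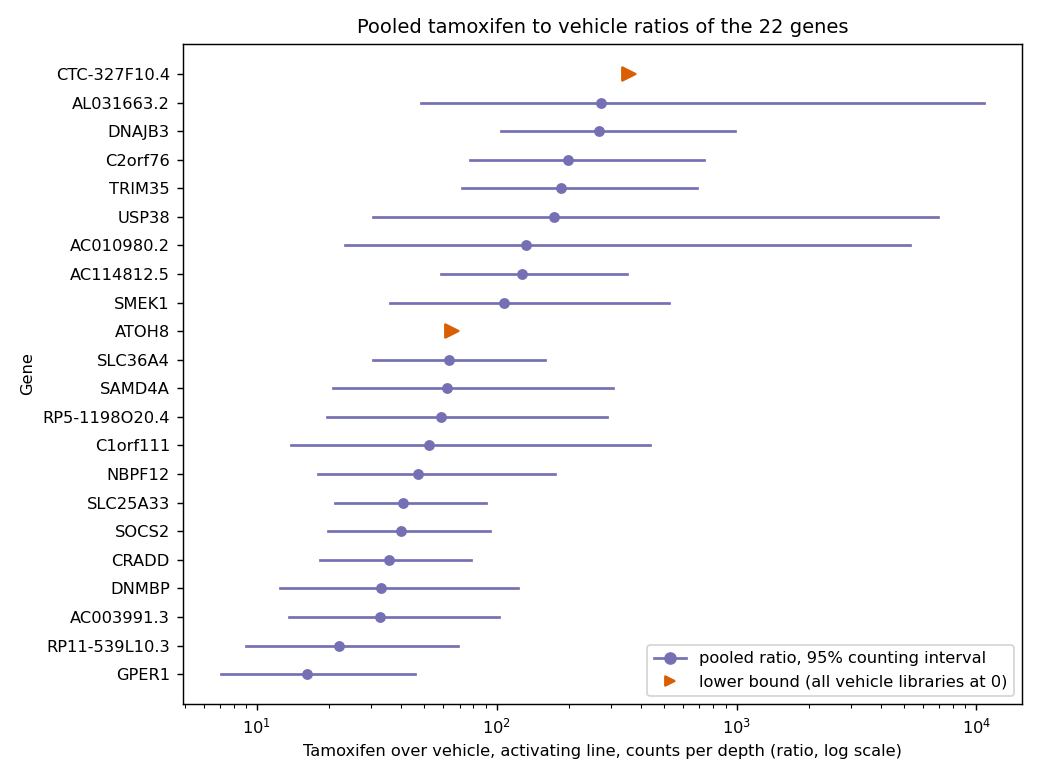
Pooled ratio of tamoxifen to vehicle counts, scaled by library size and composition, for each of the 22 genes in the activating line (log axis), with exact 95% counting intervals. Triangles are lower bounds for the 2 genes at 0 in all vehicle libraries. Ratios run from 16.2 for GPER1 to 272 for AL031663.2, and most intervals overlap.

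Levels were compared between genes only per length, as mean normalised count (CPM, the count scaled by library size and composition) in activating tamoxifen per kb of annotated exons, for the 21 annotated genes. AL031663.2 has no annotated length and was not ranked. CTC-327F10.4 stood highest at 616 CPM per kb, followed by DNAJB3 at 286, AC114812.5 at 250 and C2orf76 at 174. The fifth was TRIM35 at 59.6, and the lowest was NBPF12 at 4.83. The 3 highest rows were all 0.59 to 1.27 kb in span, and C2orf76 was the highest protein-coding row. Spread between replicates was small in the highest rows, with mean normalised counts of 362 ± 14.4 CPM for DNAJB3, 260 ± 13.1 CPM for AC114812.5 and 270 ± 23.2 CPM for C2orf76 (SD, n = 4). It was wider for CTC-327F10.4, at 366 ± 67.1 CPM. No tamoxifen library carried the group alone: the median ratio of a gene's normalised count to its own mean was between 0.945 and 1.03 in each of the 4 libraries.

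The genes just inside and outside the limits differed little. GPER1, C1orf111 and RP11-539L10.3 had a lowest tamoxifen count of 15. Just outside were PPP1R12B (2, 0, 1 and 1 against 13, 16, 18 and 22), RP11-12C17.2 (3, 1, 1 and 0 against 13, 13, 18 and 15) and ODC1 (3, 2, 0 and 2 against 18, 17, 12 and 16). A highest vehicle count of 3 was found in 7 members, among them AC114812.5, SLC36A4 and CRADD. Just outside that limit stood 3 genes, MCF2L2 (1, 1, 1 and 4 against 33, 33, 40 and 43), CSTF2T (4, 1, 1 and 2 against 166, 125, 174 and 218) and a non-coding row (3, 3, 3 and 4 against 16, 16, 30 and 25).

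The libraries of the other lines did not enter the choice and show how low the 22 genes were there. In the 24 libraries of the parental, neutral and repressive lines, 39 of 528 values were above 3 counts, and the largest was 10, in CRADD. In all, 10 of the 22 genes stayed at 3 or fewer counts in each of the 24 libraries, of which 4 stayed at 1 or fewer. Such low rows are most of the table. Of its 57773 genes, 51365 had 3 or fewer counts in every parental vehicle library. In neutral and repressive vehicle 49987 and 50451 genes did. Each of these figures covers the 4 libraries of 1 group and not all 24. The share at all 24 was not taken over the other genes low in activating vehicle, so the 10 of 22 has no like background. ATOH8 alone was at 0 in all 24, and 0 counts allow a level of up to 0.184 CPM over these libraries together. CTC-327F10.4 had a single count, in repressive tamoxifen replicate 3.

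The 12 others were above 3 counts in some library outside the activating line. CRADD was the highest, with 7, 3, 4 and 10 counts in parental vehicle and 9, 7, 5 and 6 in parental tamoxifen. TRIM35 had 2, 2, 4 and 4 counts in parental vehicle and 1, 2, 5 and 8 in parental tamoxifen. SLC36A4 reached 6 in a parental vehicle library, RP5-1198O20.4 reached 6 in another, and RP11-539L10.3 reached 6 in a parental and a repressive tamoxifen library. C2orf76 had 3, 5, 4 and 1 counts in parental vehicle and 2 in each parental tamoxifen library, but at most 1 in each neutral and repressive library. SMEK1 reached 5 in neutral tamoxifen, SOCS2 5 in neutral vehicle and neutral tamoxifen, and SLC25A33 5 in parental tamoxifen. Low counts were thus present in cells without a construct for some of these genes.

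Summed over the 22 genes, normalised counts were 55.5 ± 4.5 CPM in parental vehicle and 54.8 ± 5.61 CPM in parental tamoxifen (SD, n = 4), with ranges of 49.9 to 59.9 and 49.2 to 60.2 CPM. Neutral vehicle ranged from 24.7 to 36.4 CPM, repressive vehicle from 26.4 to 37.6 CPM and activating vehicle from 25.3 to 38.8 CPM. The parental libraries did not overlap the vehicle libraries of the neutral and repressive lines. Each gene was held to 3 or fewer counts in activating vehicle by the choice, so the low sum there was partly fixed in advance. In 9272 other genes at 3 or fewer counts in each activating vehicle library and 1 to 9 over the 4, the sum was 6473 to 7657 CPM in parental vehicle, 8033 to 9500 CPM in neutral vehicle, 8058 to 9744 CPM in activating vehicle and 6737 to 8665 CPM in repressive vehicle, the last of which overlapped the parental range. A sum over 9272 genes is not a like background for a sum over 22. The difference between parental and construct lines was not tested, and line and construct cannot be told apart.

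Within the repressive line the sum was 26.4 to 37.6 CPM under vehicle and 13.7 to 19.1 CPM under tamoxifen, without overlap. Without CRADD, left out after the values were seen, the ranges were 23.0 to 27.8 and 10.7 to 17.4 CPM. In the 9272 other genes the repressive vehicle and tamoxifen libraries overlapped, at 6737 to 8665 and 7379 to 8340 CPM. That sum is over far more genes, so its overlap is not a like background for a sum over the chosen genes. No sum was taken over other sets of low genes of the same size. In the neutral line the sum was 24.7 to 36.4 CPM under vehicle and 14.9 to 32.4 CPM under tamoxifen, which overlapped. Activating tamoxifen stood at 2685 to 2863 CPM.

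**Figure D4:**
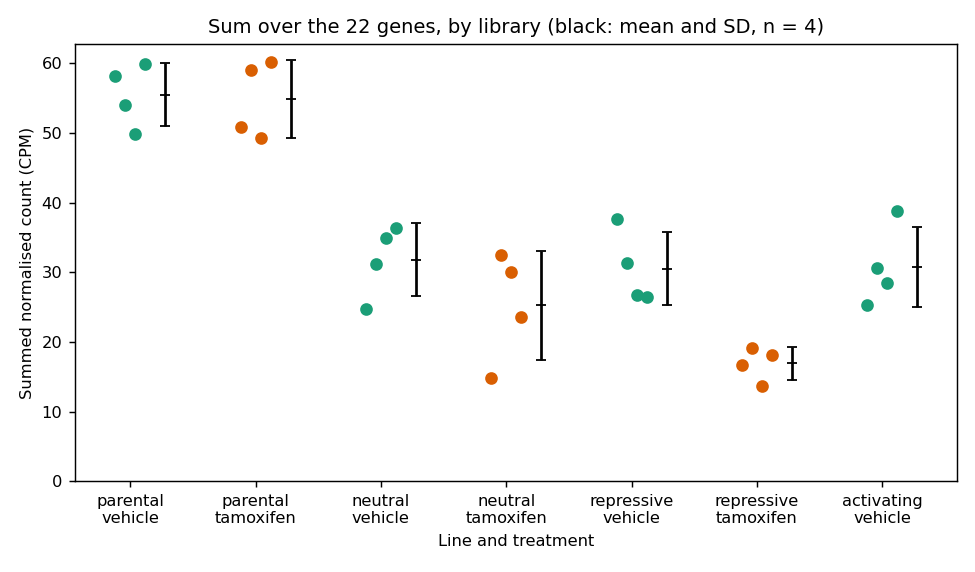
Normalised counts (CPM) summed over the 22 genes in each library outside activating tamoxifen (points, green for vehicle and orange for tamoxifen), with the mean and SD of 4 libraries in black. Repressive tamoxifen sits at 13.7 to 19.1 CPM, below all 4 repressive vehicle libraries, and the 8 parental libraries sit at 49.2 to 60.2 CPM.

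Whether single genes responded to tamoxifen in the other lines was tested by edgeR's quasi-likelihood test over 3985 genes, with Benjamini-Hochberg adjustment over all of them at 0.05. All 22 genes entered that test only through their counts in activating tamoxifen, and in the other lines it compares counts of at most 10, too few for most of the 22 to be called. With the filter set on the 2 groups of the repressive, neutral or parental line alone, none of the 22 was left to test. In the repressive line 1 of 22 was called, TRIM35, which was lower, where 9.99% of tested genes were called lower and 7.8% higher. At an unadjusted p under 0.05, 4 of the 22 were lower (SAMD4A, TRIM35, SOCS2 and SLC36A4), where 16.1% of tested genes were, and 0 were higher, where 13.9% were. Estimated log2 fold changes were below 0 in 16 genes (49.6% of all tested genes) and above 0 in 5, with a median of -0.78 against 0.0048 for all tested genes. These medians are not on a like scale, since 1 count moved an estimate far in rows this low. USP38, with 1, 0, 0 and 0 counts in repressive vehicle and 0 in each repressive tamoxifen library, had -1.58. No such median was taken over other genes with counts this low.

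TRIM35 had 2, 2, 4 and 3 counts in repressive vehicle and 0 in each repressive tamoxifen library. Every tamoxifen library was lower, by an estimated log2 fold change of -4.53 ± 1.255 (SE), with an adjusted p of 0.0115 by edgeR. The call rests on 2, 2, 4 and 3 counts against none: by DESeq2 the adjusted p was 0.0537, so the call was lost, and dropping single libraries gave 0.0120 to 0.0375 by edgeR. On normalised counts, TRIM35 and SOCS2 were the 2 of 22 genes with every repressive tamoxifen library below every vehicle library, which held for 9.71% of the tested genes. SOCS2 went from 1, 3, 1 and 2 counts to 1, 0, 0 and 0, with an adjusted p of 0.149 by edgeR.

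In the neutral line 1 of 22 was called, CRADD, which was lower, where 2.11% of tested genes were called lower and 2.61% higher. CRADD had 4, 3, 9 and 8 counts in neutral vehicle and 0, 1, 1 and 0 in neutral tamoxifen. All 4 tamoxifen libraries were below all 4 vehicle libraries, as in 5.42% of the tested genes, with an estimated log2 fold change of -3.15 ± 0.795 (SE) and an adjusted p of 0.0229 by edgeR. The call was lost, with adjusted p from 0.0501 to 0.0858, when neutral tamoxifen replicate 1, neutral tamoxifen replicate 3, neutral vehicle replicate 3 or neutral vehicle replicate 4 was left out. In repressive libraries CRADD went from 7, 3, 2 and 2 counts to 1, 1, 2 and 1, an adjusted p of 0.194 by edgeR. TRIM35 in the neutral line went from 0, 3, 2 and 3 counts to 1, 0, 0 and 0, with an adjusted p of 0.285. At an unadjusted p under 0.05 these were the 2 genes of the 22 that were lower (8.88% of tested genes) and 0 were higher (7.95%). Estimates were below 0 in 13 genes (50.4% of tested genes) and above 0 in 6. Neither gene was called in both construct lines, and the difference between the lines was not tested.

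In the parental line 0 of 22 genes and 0% of tested genes were called by edgeR, with 0 of the 22 at an unadjusted p under 0.05, where 306 of all tested genes were (3.39% lower and 4.29% higher). DESeq2 called 0 of the 20 members to which it gave an adjusted p. With the replicate number as a block, edgeR called 32 tested genes and 0 of the 22. The estimates were split evenly, 10 below 0 (48.6% of tested genes) and 10 above, with a median of 0.

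**Figure D5:**
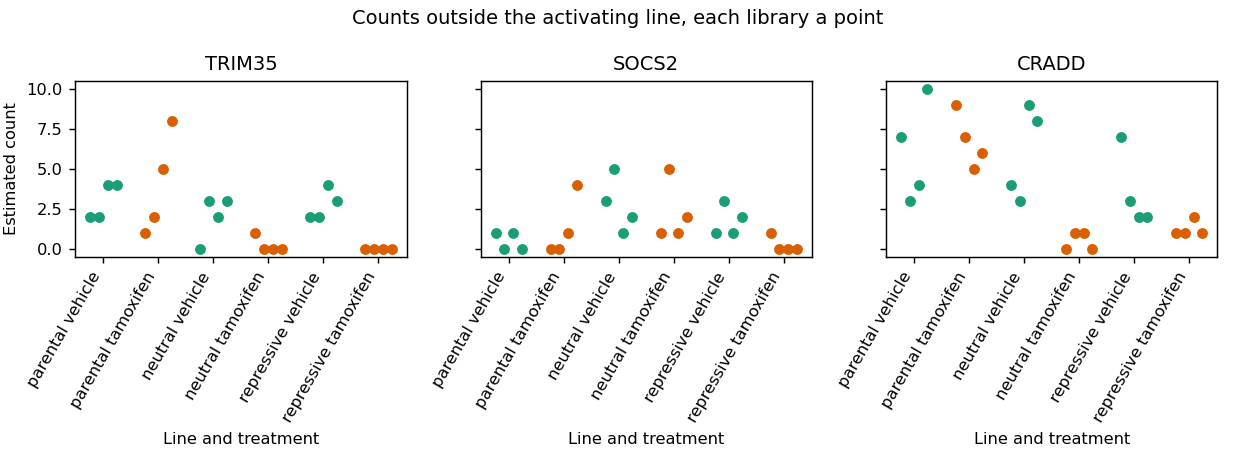
Estimated counts of TRIM35, SOCS2 and CRADD in the 24 libraries outside the activating line (green vehicle, orange tamoxifen, each point a library). TRIM35 is at 0 in all 4 repressive tamoxifen libraries and CRADD at 0 or 1 in all 4 neutral tamoxifen libraries, whereas both stay at 1 to 10 counts in the parental libraries.

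Genes of related lists, none of which held any of the 22, were counted in the activating line, where 22% of tested genes were called higher and 22.8% lower by edgeR. Of 44 androgen response genes in the table, 12 had enough counts to be tested, of which 7 rose and 2 fell. PMEPA1, a negative regulator of growth factor signalling, had 4 to 16 counts with vehicle and 18 to 32 with tamoxifen. KLK3, the gene of prostate-specific antigen, had a log2 fold change of 0.66 ± 0.209 (SE) with an adjusted p of 0.0130 by edgeR. Both tested genes of glucocorticoid and progesterone response rose, ZBTB16 from 4 to 10 up to 42 to 58 counts and KLF9 from 49 to 77 up to 112 to 148. The death receptor gene TNFRSF10B rose from 6 to 11 up to 38 to 45 counts, and it was 1 of 2 tested genes of the apoptosis list. All genes named from these lists were higher, and the 2 androgen response genes that fell are not among them. Of 6 tested prostate secretory and luminal genes, 2 rose and 2 fell. The 1 tested gene of steroid and xenobiotic metabolism fell, as did the 1 tested neuroendocrine gene. The 1 tested immune gene and 1 of 2 tested steroid receptors rose.

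Among markers of other cell types, 15 of 22 basal and squamous genes, 4 of 5 fibroblast genes, 3 of 4 immune genes and 2 of 3 endothelial genes were at 0 in all 8 libraries of the activating line. So were 8 of 19 prostate secretory and luminal genes and 7 of 46 androgen response genes. A listed gene without a row was taken as 0 (2 of the 3 endothelial, 18 of the 19 luminal and 44 of the 46 androgen response genes have one). Of all 57773 genes, 23861 had a count in the 32 libraries. The basal and squamous list does not hold KRT5 and KRT6A, which met both limits and were left out by name. The exception among the immune genes was CD68, at 4 to 13 counts with vehicle and 9 to 18 with tamoxifen. ESR1, whose sequence is the source of ERT2, had 100 to 143 counts under activating vehicle and 101 to 132 under tamoxifen, and 0 to 2 in the parental libraries. Its raw counts were thus level. After scaling for library size and composition it was called higher under tamoxifen, with a log2 fold change of 0.47 ± 0.126 (SE) and an adjusted p of 0.00405 by edgeR.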

How the data were processed

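The deposited table held estimated counts per gene for the 32 libraries, made by the authors with salmon 1.9.0 in nf-core/rnaseq on GRCh37, per the labels and the study's methods. The library kit was Illumina Stranded mRNA Prep; the strand setting and annotation release are not given in the sources used here. Counts assigned to genes totalled 454996 to 1164823 per library. The limits of 3 and 15 counts were applied to the deposited values. The 22 genes and all gene lists were chosen with earlier results of these data known.

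For tests, counts were rounded, kept by filterByExpr over the 8 groups (3985 genes), scaled by TMM and compared between tamoxifen and vehicle within each line by edgeR 4.0.16 (quasi-likelihood, robust), adjusted by Benjamini-Hochberg at 0.05, in R 4.3.3. DESeq2 1.42.0, other normalizations and filters, a replicate block and leaving out each library were alternatives. The code was tested on simulated data. Normalised counts are TMM-scaled CPM. Ratios relate pooled rounded counts to summed TMM library sizes, with exact conditional 95% intervals; for genes at 0, 3 counts over the 4 vehicle libraries stood for the floor. Intervals and floors cover counting error only. Positions came from GENCODE 44 lifted to GRCh37, which held 55538 genes of the table (96.1%), and promoters from RefSeq (GRCh38.p14). Groups came from the sample labels. Replicates of a group differed by more than sampling noise in all 48 pairs. The labels call them replicates, and p-values measure the spread between these samples.

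Named were both proposed markers, the 12 genes highest in activating tamoxifen, genes nearest each limit, members with over 3 counts elsewhere, members called in another line, members opposite a list gene and members within 100 kb of each other; the others were named after their values were seen. Some items are not reported here.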

Additional observations from a re-analysis of the deposited data

Results flagged for a closer look

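C1orf111 had normalised counts of 38.6, 27.6, 37.2 and 37.8 CPM in activating tamoxifen, and replicate 2 stood apart, its gap to the nearest library being 0.879 of the whole range, above Dixon's 95% critical value for 4 libraries. This was 1 of 30 groups examined, and chance alone marks about 1 group in 20. Its count in replicate 2, 15, was also the lowest that the choice of genes allowed.

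The activating direction of the following genes was fixed by how they were chosen. In the repressive line every TRIM35 tamoxifen library was below every vehicle library, with a log2 fold change of -4.53. On normalised counts this also held for SOCS2, with a log2 fold change of -2.31 that was not called (adjusted p 0.149 by edgeR) and raw counts of 1, 3, 1 and 2 against 1, 0, 0 and 0. In the neutral line it held for CRADD, with a log2 fold change of -3.15. The difference between lines was not tested for these genes, since the activating libraries chose them.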

How the results depend on the processing

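Limits decided how many genes were described. Against 22 genes, a vehicle limit of 1 gave 7, tamoxifen limits of 10 and 30 gave 32 and 11, and leaving out genes with opposite-strand exon overlap gave 14 annotated genes; leaving out each library gave 22 to 25. Of the genes, 10 stayed at 3 or fewer counts in the other lines and 4 at 1 or fewer. The element count went from 0 to 1 with a mismatch allowed. Over all tested genes, DESeq2 called 451 in the repressive line against 709, and 0 members against 1. Leaving out each library gave 0 to 1 member and 105 (without neutral tamoxifen replicate 3) to 415 genes (without neutral tamoxifen replicate 4) in the neutral line against 188, 534 to 729 in the repressive line, 1608 to 1717 in the activating line against 1786, and 0 to 3 (without parental vehicle replicate 1) in the parental line. No filter on low counts gave 24 genes in the parental line against 0.

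Same-numbered libraries did not all deviate together (correlations -0.0264 to 0.247), so the numbers were not taken as pairs. With the replicate number as a block, the parental line had 32 genes called against 0, and the repressive, neutral and activating lines 931, 253 and 1922; the block changed no call among the 22 genes. Every sample correlated best with its own number in the repressive line only. The same held for replicates 1, 3 and 4 of the parental line, 2 and 3 of the activating line and 1 and 4 of the neutral line. Whether same-numbered libraries shared a batch was not tested. A filter over the 2 groups of the repressive, neutral or parental line left no member to test, and DESeq2 gave no member an adjusted p in the neutral line. Without CRADD, chosen after the values were seen, the summed level moved by more than its SD in 4 of 8 groups. With counts this low, absence in other lines is an upper limit and not a zero.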
